A study of Homo sapiens with 14 samples.

Results

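The seed family of miR-25 and miR-92 was followed here through 2 pulldowns for N7-methylguanosine (m7G), a guanine that carries a methyl group, in A549 cells, a human lung adenocarcinoma line. The members are 8 mature miRNAs of the 2588 counted in each deposited table. They were taken by name: 5 carry the family seed (hsa-miR-92a-3p, hsa-miR-25-3p, hsa-miR-92b-3p, hsa-miR-32-5p and hsa-miR-363-3p, called seed arms below), and 3 come from the opposite strand of the same hairpins (hsa-miR-25-5p, hsa-miR-92a-1-5p and hsa-miR-92b-5p, called partner arms). The species prefix hsa is left out from here on. In BoRed-seq, decapped total RNA was reduced with NaBH4 and exposed to low pH, which leaves a site without a base where an m7G stood; a biotin-coupled aldehyde reactive probe attaches there, and the RNA is collected on streptavidin beads (Red, n = 2). The BoRed-seq controls were non-reduced RNA, given acid-quenched NaBH4 and otherwise taken through the same pulldown (Ctrl, n = 2). In m7G-RIP-seq, RNA was immunoprecipitated with an antibody against m7G (IP, n = 5) and set against the RNA before immunoprecipitation (Input, n = 5). All 14 libraries came from A549 cells, a single line, and neither the labels nor the methods say whether replicates were separate cultures, so p-values measure the spread between these libraries, which may be technical.

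A miRNA hairpin is cut into a short duplex. One strand, the guide, is kept by an Argonaute protein, and the other, the passenger, is mostly lost. The seed, the bases near the 5′ end, pairs with target messenger RNAs, so miRNAs of one seed share most of their predicted targets whatever their other bases are. This family is best known through miR-92a, part of the growth-promoting miR-17-92 cluster, and miR-25, part of the miR-106b-25 cluster, both known for repressing pro-apoptotic and tumor suppressor messages.

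The seed arms are printed first because their shared seed hides large differences in the rest of the sequence. Sequences are from RefSeq (GRCh38.p14), 5′ to 3′, with the seed (bases 2 to 8) in capitals:
miR-92a-3p: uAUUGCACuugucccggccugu
miR-25-3p: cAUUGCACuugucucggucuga
miR-92b-3p: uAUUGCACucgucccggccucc
miR-32-5p: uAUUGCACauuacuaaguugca
miR-363-3p: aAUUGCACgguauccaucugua
Counting from 1 at the 5′ end of miR-92a-3p, miR-92b-3p differs from it by U10C, G21C and U22C, and is the same at 19 of 22 positions. miR-25-3p differs by U1C, C14U, C18U and U22A, the same at 18 of 22. miR-32-5p and miR-363-3p match miR-92a-3p at only 11 and 10 positions. Reads were allowed at most 1 mismatch, and a read that stops before the last 2 bases separates miR-92a-3p from miR-92b-3p by U10C alone, so the division of counts between these 2 is uncertain. miR-367-3p is the other listed miRNA with this seed, and it passed the count filter in neither assay.

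The partner arms are shown because they are the guanine-rich strands of the family, here with every run of 2 or more guanines in capitals:
miR-25-5p: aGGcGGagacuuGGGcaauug
miR-92a-1-5p: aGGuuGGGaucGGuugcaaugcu
miR-92b-5p: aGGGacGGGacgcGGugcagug
Guanine made up 54.5% of miR-92b-5p (12 bases), 42.9% of miR-25-5p (9 bases) and 39.1% of miR-92a-1-5p (9 bases), against a median of 27.3% over the tested miRNAs with a sequence. It made up 22.7% of miR-92a-3p and miR-25-3p, 18.2% of miR-92b-3p and miR-363-3p, and 13.6% of miR-32-5p, which has no 2 guanines in a row.

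The hairpins lie at separate loci (GRCh38, GENCODE annotation). MIR92A1 (chr13:91351314-91351391, + strand) lies in an exon of MIR17HG, the host transcript of the miR-17-92 cluster. MIR25 (chr7:100093560-100093643, − strand) lies in an intron of MCM7, a replication helicase gene. MIR92B (chr1:155195177-155195272, + strand) lies in an exon of the long non-coding RNA THBS3-AS1, and MIR32 (chr9:109046229-109046298, − strand) in an intron of TMEM245. MIR92A2 (chrX:134169538-134169612, − strand) and MIR363 (chrX:134169378-134169452, − strand) lie in 1 non-coding transcript on chromosome X, so miR-92a-3p has 2 source hairpins and its counts sum both. Runs of guanine can fold into a G-quadruplex, a stacked structure of 4 runs. A search of the given strand of the 6 hairpins for 4 runs of GGG with 1 to 7 bases between them found a match in MIR92B alone, GGGccccGGGcGGGcGGG, from base 2 to base 19 of the hairpin, directly before miR-92b-5p, which starts at base 20. The same pattern was found in 2.37% of 1560 hairpins (37), and the looser one with 4 runs of GG in 29.2%. A match of letters is a description and not evidence of a structure.

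Library totals were 4678102 to 5874405 counts in Ctrl, 242085 to 277498 in Red, 7097379 to 14874685 in Input and 2854811 to 6452759 in IP. Within m7G-RIP-seq, replicates 1 to 3 and replicates 4 and 5 stood apart: the second principal component of the log2 normalized counts (15.3% of the variance) ran from 6.98 to 18.1 in the former and from −23.9 to −5.49 in the latter, Input and IP alike. The labels name no batch, so results that rest on this division are given within each set. CPM stands for counts scaled to a library total of 1e+06. Summed epithelial markers (the miR-200 family, 5 miRNAs) were at 342 to 1000 CPM in Input and 193 to 228 in Ctrl. They were uneven: in Input, miR-200b-3p alone held 258 to 850 CPM, and miR-141-3p held 0 to 0.342. Markers of blood, liver, muscle and nerve (9 miRNAs) summed to at most 3.83 CPM in Input and Ctrl. They summed to 2.80 to 5.73 CPM in IP and to 33.0 to 119 in Red, with liver miR-122-5p at 0 in every library. Their part in the results was not tested.

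miR-92a-3p dominated the family before pulldown. It held 45366 ± 5097 CPM (SD, n = 5) in Input, between the 3rd and the 5th most counted miRNA of each library, and 89.9% ± 1.26 of the seed-arm counts. miR-25-3p (2731 ± 606 CPM) and miR-92b-3p (2374 ± 413 CPM) came next, and their ranges overlapped. The partner arms followed, with miR-25-5p at 209 ± 41.9 CPM, above miR-92b-5p at 84.9 ± 24.0 CPM and miR-92a-1-5p at 48.2 ± 7.81 CPM, the last 2 of which overlapped. miR-363-3p (8.31 ± 1.34 CPM) and miR-32-5p (6.60 ± 1.64 CPM) were lowest and also overlapped. Mature miRNAs are of nearly one length, so CPM needs no length correction here, but the efficiency of library ligation differs between sequences and was not measured. In Ctrl, which had itself gone through a pulldown, miR-92a-3p held 4591 ± 561 CPM (n = 2) and miR-32-5p held 69.4 ± 5.23 CPM, ahead of all 3 partner arms.

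The 8 members together held 0.586% ± 0.0808 of all counts in Ctrl and 3.45% ± 0.364 in Red (n = 2 each), and 5.08% ± 0.582 in Input and 11.2% ± 1.45 in IP (n = 5 each). The groups did not overlap in either assay. miR-92a-3p alone set most of these shares. Scaled by library totals, the median of all tested miRNAs also rose, with a log2 value of 1.19 for Red over Ctrl and 0.38 for IP over Input. A higher share after pulldown is therefore not by itself particular to these members.

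**Figure D1:**
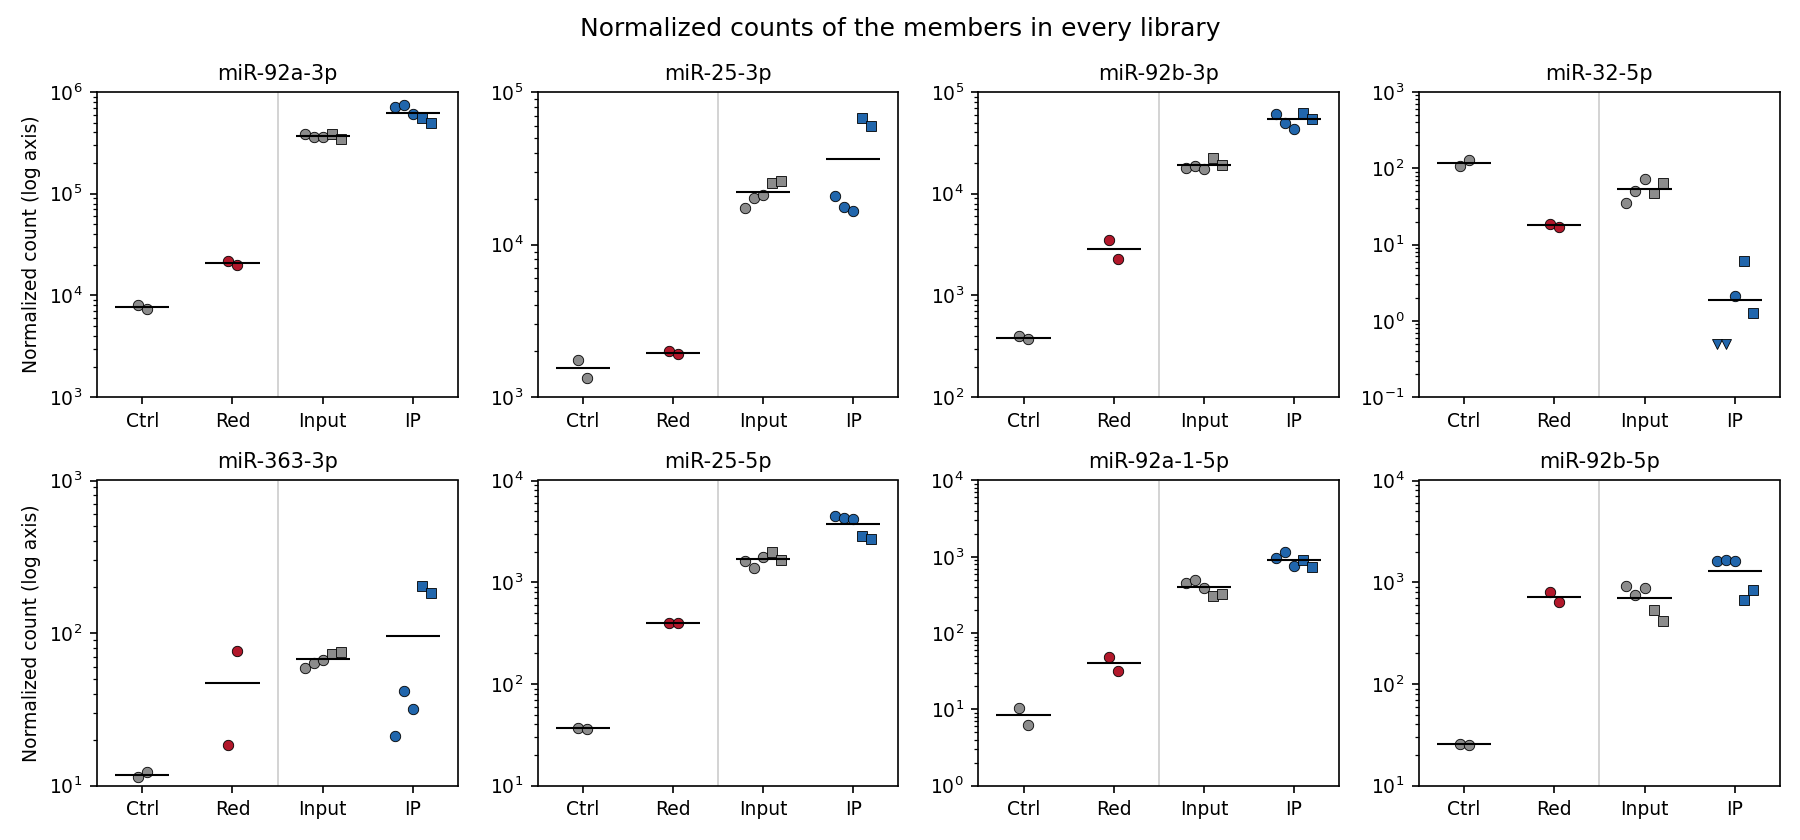
Normalized counts (log axis, DESeq2 size factors, computed separately for each assay) of the 8 members in the 14 libraries. Each symbol is a library, squares are replicates 4 and 5 of m7G-RIP-seq, triangles are counts of 0 drawn at 0.5 and lines are group means. miR-32-5p is lower after both pulldowns, and the IP libraries of miR-25-3p and miR-363-3p form separate groups by replicate set.

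All 8 members passed the count filter in both assays and were tested with DESeq2 over the whole table of each assay, with calls made where the adjusted p was under 0.05. miR-32-5p passed through the control libraries alone, since no Red or IP library reached 10 counts of it. The filter could therefore admit it only because it was high in the controls. In BoRed-seq, 6 members were enriched, 1 was depleted and 1 was not called, where 32.2% of all 400 tested miRNAs were enriched and 27.2% depleted. In m7G-RIP-seq, 5 were enriched, 1 was depleted and 2 were not called, where 27.3% of 670 were enriched and 29.9% depleted. The 5 enriched in m7G-RIP-seq (miR-92a-3p, miR-92b-3p, miR-25-5p, miR-92a-1-5p and miR-92b-5p) were enriched in BoRed-seq too, and miR-32-5p was depleted in both; over the 384 miRNAs tested in both assays, 18.2% were enriched in both and 22.7% depleted in both. The median log2 enrichment of the members was 2.13 against −0.09 over all tested miRNAs for BoRed-seq, and 0.82 against 0.02 for m7G-RIP-seq. The 3 partner arms had medians of 3.43 and 1.13 by the 2 assays, and the 5 seed arms 1.44 and 0.73. Every library of the pulldown lay above every control library for 7 members of BoRed-seq and below them for 1 (39.5% and 43.2% of all tested), and for 4 members of m7G-RIP-seq above and 1 below (18.2% and 24.2%).

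Scaling mattered for the sizes. With library totals as size factors, the median of all tested miRNAs moved up by 1.28 for BoRed-seq and by 0.36 for m7G-RIP-seq (log2), and the enriched share of all calls went from 54.2% to 79.2% and from 47.8% to 58.6%. The 7 members called for BoRed-seq and the 6 called for m7G-RIP-seq kept their direction and call under that scaling.

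**Figure D2:**
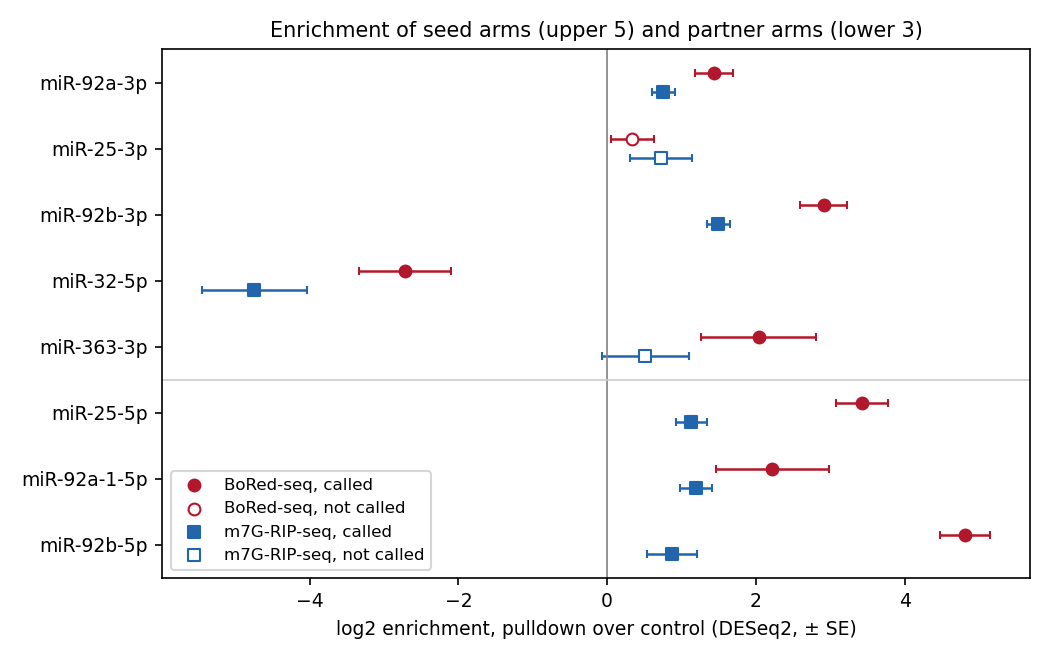
log2 enrichment of each member, Red over Ctrl (circles) and IP over Input (squares), with standard errors from DESeq2. Filled symbols passed an adjusted p of 0.05. All 3 partner arms and miR-92a-3p and miR-92b-3p lie above 0 in both assays, and miR-32-5p lies below 0 in both.

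Among the seed arms, miR-92a-3p, the most abundant member, was enriched in both assays. Its normalized count was 8108 and 7296 in Ctrl and 21880 and 19832 in Red, a log2 enrichment of 1.44 ± 0.26 (SE; 2.71-fold, adjusted p = 1.36e-07). Both Red libraries lay above both Ctrl libraries. It was 389511, 362370, 358200, 382399 and 348979 in Input replicates 1 to 5, and 705935, 748484, 606159, 559725 and 490224 in IP, a log2 enrichment of 0.76 ± 0.15 (1.69-fold, adjusted p = 4.00e-06). No IP library overlapped with Input, and the value was 0.87 in replicates 1 to 3 and 0.44 in replicates 4 and 5, called in both. Without Ctrl replicate 1 the BoRed-seq value fell to 0.74 and was no longer called (adjusted p = 0.0671), and without Ctrl replicate 2 it was 0.77 and still called.

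miR-92b-3p, which differs from miR-92a-3p at 3 bases, was enriched in both assays with higher values. Its normalized count went from 398 and 369 in Ctrl to 3481 and 2303 in Red, a log2 enrichment of 2.91 ± 0.31 (7.53-fold, adjusted p = 1.35e-19). Input replicates 1 to 5 held 17892, 18855, 17697, 22278 and 19279, and IP held 61371, 49746, 43324, 61612 and 54457, a log2 enrichment of 1.49 ± 0.15 (2.82-fold, adjusted p = 3.74e-21). The groups were far apart in both assays, and the value was almost the same in replicates 1 to 3 (1.48) and in replicates 4 and 5 (1.40). Without a Ctrl library the BoRed-seq value was 2.19 or 2.27, still called.

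The ratio of miR-92b-3p to miR-92a-3p within a library, which needs no scaling between libraries, was higher in both pulldowns. miR-92b-3p was 4.91% and 5.06% of miR-92a-3p in Ctrl and 15.9% and 11.6% in Red, a log2 shift of 1.45. It was 4.59%, 5.20%, 4.94%, 5.83% and 5.52% in Input and 8.69%, 6.65%, 7.15%, 11.0% and 11.1% in IP, a log2 shift of 0.75 (two-sided exact permutation p = 0.00794, the smallest that 5 against 5 can give; Benjamini-Hochberg adjusted over 7 ratios, 0.0278). With IP and Input paired by replicate number the ratio was higher in 5 of 5 pairs, where an exact sign-flip test cannot go below 0.0625, the value it gave. With 2 against 2 in BoRed-seq no p below 0.333 is possible, so ratios there are values only.

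miR-25-3p, which differs from miR-92a-3p at 4 bases, was not called in either assay. Its normalized count was 1761 and 1330 in Ctrl and 2007 and 1906 in Red, a log2 difference of 0.34 ± 0.29 (95% interval −0.23 to 0.91, adjusted p = 0.318). Input held 17427, 20316, 21233, 25228 and 26188, and IP held 20970, 17673, 16481, 67960 and 59553, a log2 difference of 0.73 ± 0.42 (95% interval −0.09 to 1.54, adjusted p = 0.124). IP replicates 4 and 5 stood above every Input library, IP replicates 1 and 2 fell among them and IP replicate 3 lay below them. Within replicates 1 to 3 the log2 difference was −0.12 (adjusted p = 0.451), and within replicates 4 and 5 it was 1.23 (adjusted p = 3.47e-24). The difference between the sets was not tested. A call in 1 set alone was common: of 620 miRNAs in both sets, 105 were called only in replicates 4 and 5 and 71 only in replicates 1 to 3. Another 274 were called in both sets with the same direction and 7 with opposite directions. With library totals as size factors miR-25-3p was called in both assays (1.45, adjusted p = 9.99e-05, and 1.03, adjusted p = 0.0229), and in BoRed-seq its sign turned, uncalled, without Ctrl replicate 1 (−0.22) or 2 (−0.44) and with no count filter (−0.14).

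Against miR-92a-3p in the same library, miR-25-3p went from 21.7% and 18.2% in Ctrl to 9.17% and 9.61% in Red. In IP the 2 sets went opposite ways: miR-25-3p was 4.47% to 5.93% of miR-92a-3p in Input replicates 1 to 3 and 2.36% to 2.97% in the IP of those replicates, but 6.60% and 7.50% in Input replicates 4 and 5 and 12.1% in both IP libraries. Over all 5 against 5 the ratio did not pass (log2 shift −0.28, exact permutation p = 0.587).

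miR-363-3p, from the X-linked miR-106a-363 cluster, was close to the limit of counting. Its raw counts were 41 and 33 in Ctrl and 5 and 31 in Red, and its normalized counts 11.3 and 12.3 against 18.5 and 75.9, a log2 enrichment of 2.04 ± 0.78 (4.10-fold, adjusted p = 0.0168). The call rested on Red replicate 2: without it the value was 0.80 (adjusted p = 0.639), against 3.06 without Red replicate 1, and it was also lost without Ctrl replicate 1 (1.18) or 2 (1.47) and with no count filter (1.54). With Ctrl thinned to the depth of Red, both Ctrl libraries held 0 counts and miR-363-3p was not tested. Against miR-92a-3p in the same library it was 0.140% and 0.168% in Ctrl and 0.0846% and 0.383% in Red, which overlap. That ratio shifted by −0.80 (log2) in IP (exact permutation p = 0.310). In m7G-RIP-seq, Input held 58.8, 63.5, 66.5, 73.3 and 74.6 normalized counts and IP 21.1, 41.8, 31.6, 202.7 and 182.7, a log2 difference of 0.52 ± 0.59 (adjusted p = 0.463). All IP libraries of replicates 1 to 3 lay below Input and both of replicates 4 and 5 above it, with log2 differences of −1.02 (adjusted p = 0.137) and 1.30 (adjusted p = 0.000622), whose difference was not tested. A call in replicates 4 and 5 alone was made for 105 of 620 miRNAs.

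miR-32-5p, the seed arm with the least guanine and the only one that comes from the 5′ side of its hairpin, was depleted in both assays. It had 386 and 342 raw counts in Ctrl and 5 and 7 in Red, or 106.8 and 127.2 normalized counts against 18.5 and 17.1, a log2 value of −2.72 ± 0.62 (6.60-fold lower, adjusted p = 3.35e-05). It was not tested without either Ctrl library, where too few libraries reached the count minimum. In m7G-RIP-seq it had 31, 80, 102, 77 and 122 raw counts in Input and 0, 0, 1, 6 and 1 in IP, a log2 value of −4.74 ± 0.71 (26.8-fold lower, adjusted p = 1.31e-10). The 0 in IP replicates 1 and 2 allows a share of up to 6.16e-05% and 5.67e-05% of the library, for counting error only. Without IP replicate 4 no remaining IP library had more than 1 count, so miR-32-5p was at least 12.2-fold lower there, taking 3 counts per library as the floor. Its ratio to miR-92a-3p shifted by −4.03 (log2) in Red and by −5.66 in IP (exact permutation p = 0.00794, adjusted 0.0278). The opposite arm, miR-32-3p, had a log2 value of −1.32 in BoRed-seq (adjusted p = 0.362) and was depleted in m7G-RIP-seq (−0.99, adjusted p = 0.0224).

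Among the partner arms, miR-92b-5p had the highest BoRed-seq value of the family, the 40th highest of 400 tested miRNAs. Its normalized count was 25.7 and 25.3 in Ctrl and 799.9 and 638.7 in Red, from raw counts of 93, 68, 216 and 261, a log2 enrichment of 4.81 ± 0.34 (28.1-fold, adjusted p = 2.21e-44). Each Red library, at no more than 277498 counts in all, held more reads of it than either Ctrl library, at 4678102 or more. Without Ctrl replicate 1 or 2 the value was 4.05 or 4.21, still called. In m7G-RIP-seq the groups overlapped: Input held 918, 744, 884, 529 and 418 and IP held 1618, 1645, 1623, 676 and 845, a log2 enrichment of 0.88 ± 0.33 (1.83-fold, adjusted p = 0.0177). Input and IP of replicates 4 and 5 were both lower than those of replicates 1 to 3, and IP was above its own Input in 5 of 5 replicate numbers. The call was lost without any one of Input replicate 4 or 5 or IP replicate 1, 2 or 3 (0.71 to 0.78, adjusted p = 0.0585 to 0.0744), and held within replicates 1 to 3 (0.92) and within replicates 4 and 5 (0.60).

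miR-25-5p was enriched in both assays, unlike its opposite arm miR-25-3p. Its normalized count was 37.1 and 36.4 in Ctrl and 396 and 394 in Red, a log2 enrichment of 3.43 ± 0.35 (10.7-fold, adjusted p = 1.19e-21), and 2.66 or 2.82, still called, without Ctrl replicate 1 or 2. Input held 1630 in replicate 1 and 1389, 1783, 1993 and 1641 in the others, and IP held 4483, 4259, 4185, 2860 and 2685, a log2 enrichment of 1.13 ± 0.21 (2.19-fold, adjusted p = 2.30e-07). Every IP library lay above every Input library, and the log2 value was 1.41 in replicates 1 to 3 and 0.53 in replicates 4 and 5, called in both.

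miR-92a-1-5p, the passenger strand of MIR92A1, was enriched in both assays from few reads in BoRed-seq. It had 38 and 17 raw counts in Ctrl and 13 in each Red library, or 10.5 and 6.32 normalized counts against 48.1 and 31.8, a log2 enrichment of 2.22 ± 0.76 (4.67-fold, adjusted p = 0.00728). That call was lost without Ctrl replicate 1 (1.88), Ctrl replicate 2 (1.33) or Red replicate 1 (2.28), with no count filter (1.76) and with Ctrl thinned to the depth of Red (2.38, adjusted p = 0.127). Input held 457, 499, 395, 308 and 321 and IP held 976, 1153, 752, 896 and 736, a log2 enrichment of 1.19 ± 0.22 (2.28-fold, adjusted p = 1.76e-07), with no overlap between the groups.

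The 2 arms of a hairpin start in equal number, and their ratio in a library was compared next. For miR-92a-1-5p this is not the ratio of a single hairpin, because the miR-92a-3p counts also hold reads of MIR92A2. In BoRed-seq miR-25-5p was 2.11% and 2.74% of miR-25-3p in Ctrl and 19.7% and 20.7% in Red, a log2 shift of 3.07, and miR-92b-5p was 6.46% and 6.85% of miR-92b-3p in Ctrl and 23.0% and 27.7% in Red, a shift of 1.92. miR-92a-1-5p stayed a trace beside miR-92a-3p, at 0.130% and 0.0866% in Ctrl and 0.220% and 0.160% in Red. The partner arm was higher in Red in all 3 pairs, without overlap. The share of other hairpins with such a shift was not computed. For single miRNAs of BoRed-seq, lack of overlap was common, with 39.5% of all tested higher in the pulldown and 43.2% lower.

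In m7G-RIP-seq only 1 of the 3 arm ratios passed. miR-92a-1-5p was 0.117%, 0.138%, 0.110%, 0.0806% and 0.0920% of miR-92a-3p in Input and 0.138%, 0.154%, 0.124%, 0.160% and 0.150% in IP, a log2 shift of 0.45 (exact permutation p = 0.0159, adjusted 0.0370; paired exact sign-flip p = 0.0625, the smallest possible), with overlapping ranges. miR-92b-5p over miR-92b-3p had a shift of −0.65 (exact permutation p = 0.183), opposite in sign to BoRed-seq. miR-25-5p over miR-25-3p had a shift of 0.64 (exact permutation p = 0.294) and divided by replicate set: 6.84% to 9.35% in Input and 21.4% to 25.4% in IP of replicates 1 to 3, but 6.27% and 7.90% in Input and 4.21% and 4.51% in IP of replicates 4 and 5.

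**Figure D3:**
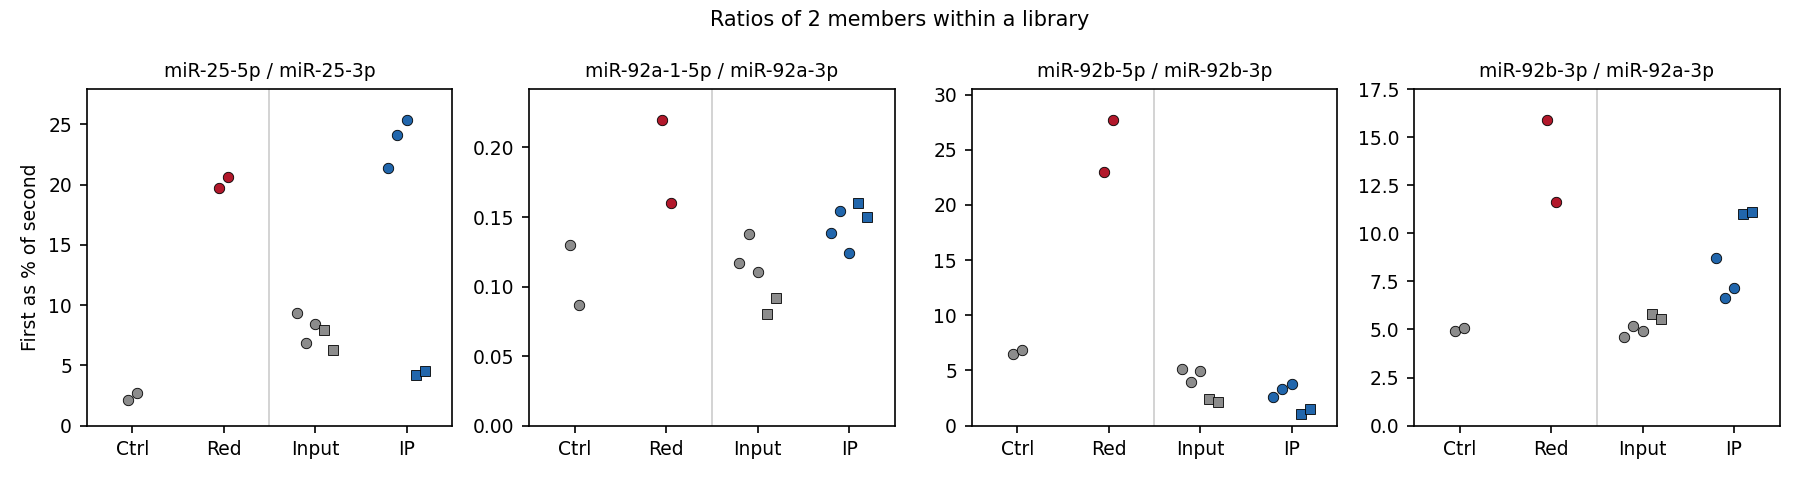
Ratio of 2 members within a library, the first as a percentage of the second (linear axes from 0), in Ctrl, Red, Input and IP, with 1 symbol per library and squares for replicates 4 and 5 of m7G-RIP-seq. miR-92b-3p is higher against miR-92a-3p after both pulldowns, while the miR-25 arm ratio in IP divides into 21.4% to 25.4% and 4.21% to 4.51%.

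By a two-sided z test of the difference, adjusted over the 384 miRNAs tested in both assays, 3 members had a larger enrichment in BoRed-seq. BoRed-seq was higher for 29.4% of those miRNAs and m7G-RIP-seq for 8.59%. A higher BoRed-seq value was therefore common and not particular to these members. The references were also unlike, since Ctrl had itself gone through a pulldown and Input was RNA before immunoprecipitation. Size factors were computed separately for each assay, so the differences also rest on the scaling. The log2 difference was 3.94 ± 0.48 for miR-92b-5p (adjusted p = 3.28e-15), 2.30 ± 0.41 for miR-25-5p (adjusted p = 1.92e-07) and 1.42 ± 0.35 for miR-92b-3p (adjusted p = 0.000277). The difference of miR-92b-3p was no longer called without Ctrl replicate 1 (0.70, adjusted p = 0.232) or Ctrl replicate 2 (0.78, adjusted p = 0.168). miR-92a-3p, at 0.68 (95% interval 0.09 to 1.28), did not pass (adjusted p = 0.0620), though it did with an interaction term over all 14 libraries (adjusted p = 0.0246) and with the replicate number as a block in both assays (0.70, adjusted p = 0.0300). Without Ctrl replicate 1 or 2 it was −0.02 or 0.02. The intervals of the others were wide: 0.18 to 3.86 for miR-32-5p (adjusted p = 0.0739), −0.39 to 3.43 for miR-363-3p (0.210), −0.52 to 2.58 for miR-92a-1-5p (0.303) and −1.38 to 0.61 for miR-25-3p (0.585).

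**Figure D4:**
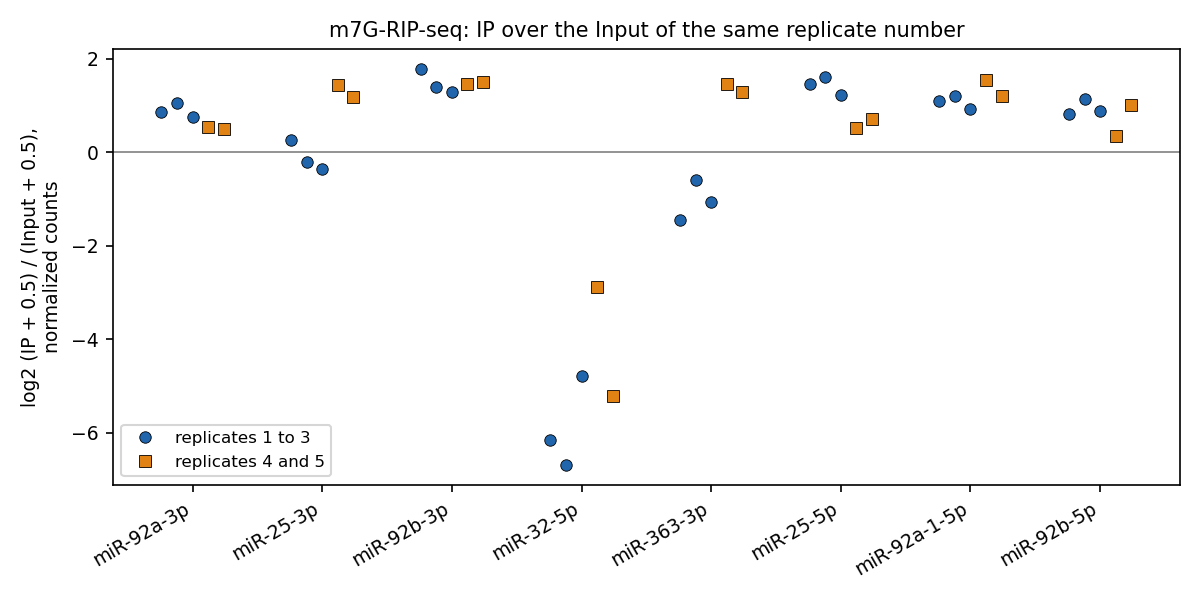
log2 ratio of the IP to the Input library of the same replicate number for each member (normalized counts plus 0.5), with circles for replicates 1 to 3 and squares for replicates 4 and 5. miR-92a-3p, miR-92b-3p and the 3 partner arms lie above 0 in all 5, miR-32-5p lies below 0 in all 5, and miR-25-3p and miR-363-3p lie between −1.46 and 0.27 in the first set and between 1.19 and 1.46 in the second.

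Guanine share and log2 enrichment were positively correlated across the tested miRNAs, given here as a description. Over the 355 tested miRNAs of BoRed-seq with a sequence, Spearman's rho was 0.382 and Pearson's r 0.408, and over 602 in m7G-RIP-seq they were 0.449 and 0.432. These points share their libraries, and miRNAs of one family share bases. The partner arms stood at the guanine-rich end, with miR-92b-5p above 96.9% of those 355 in guanine share, and miR-32-5p at the other end, above 7.61%. miR-92b-3p, at 18.2% guanine, was above only 19.2% in guanine share and yet had the highest m7G-RIP-seq value of the 8, ahead of all 3 partner arms. Over the 8 members rho was 0.711 with BoRed-seq values and 0.470 with m7G-RIP-seq values.

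**Figure D5:**
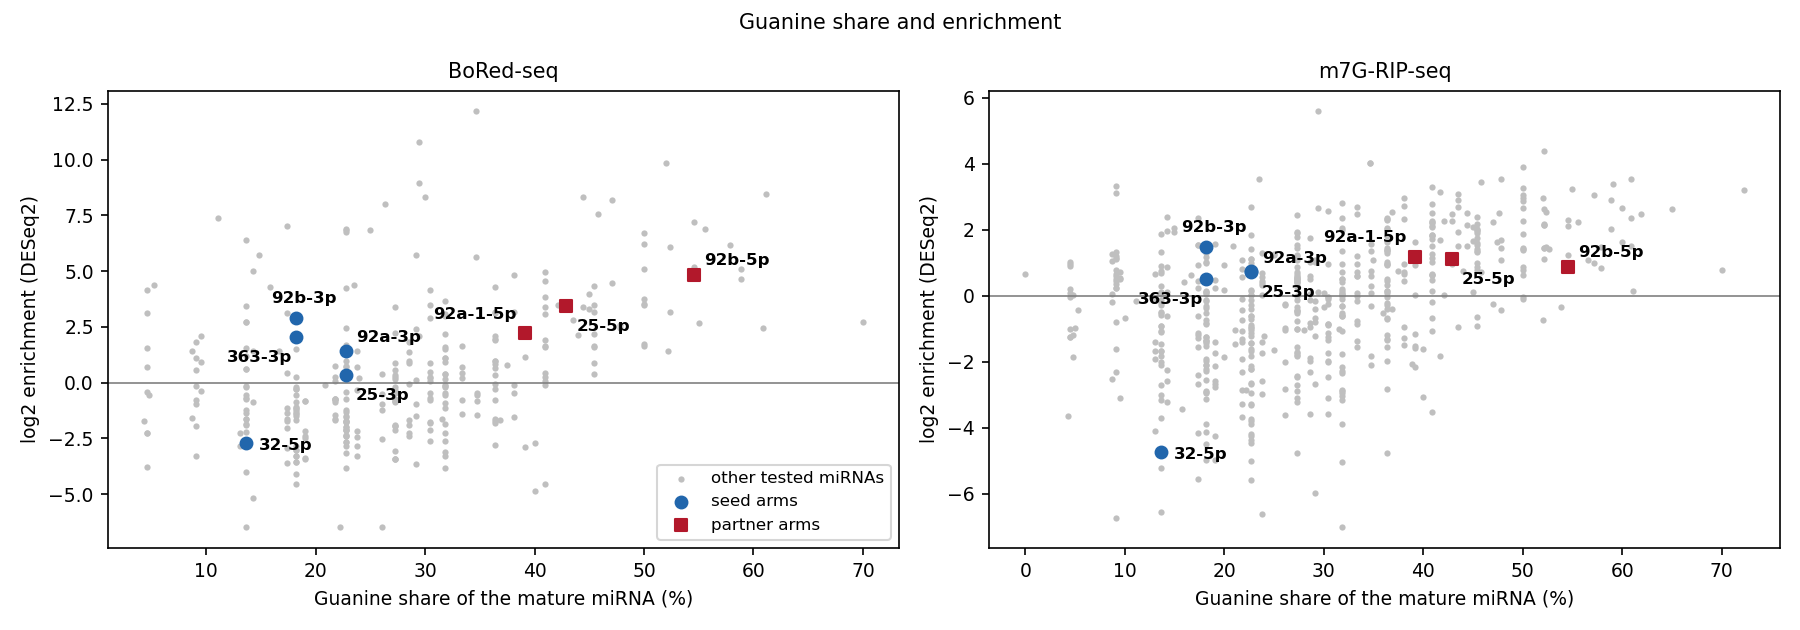
Guanine share of the mature sequence (percent) against log2 enrichment, for all tested miRNAs with a RefSeq sequence (grey) and the members (blue circles, seed arms; red squares, partner arms). The partner arms lie at 39.1% to 54.5% guanine and above 0 in both panels, and miR-32-5p lies at 13.6% and below 0.

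Neighbours of the members in their clusters were counted next. Of 21 mature miRNAs listed for the miR-17-92, miR-106b-25 and miR-106a-363 clusters, 13 were tested in each assay. In BoRed-seq 1 was enriched and 4 were depleted (median log2 −0.67), a depleted share near the 27.2% of all tested miRNAs. In m7G-RIP-seq 1 was enriched and 10 were depleted (median −2.46), where 29.9% of all tested were depleted. Those called in both assays were all depleted: miR-19b-3p (log2 −2.93 for BoRed-seq and −4.16 for m7G-RIP-seq), miR-106b-5p (−2.23 and −3.59), miR-18a-5p (−1.76 and −2.01) and miR-20a-5p (−0.77 and −2.46), the last 2 at an adjusted p of 0.0492 in BoRed-seq. miR-92a-3p was enriched where miR-18a-5p, miR-19b-3p and miR-20a-5p were depleted. MIR92A1 lies in the same transcript as miR-18a, miR-19b and miR-20a. The miR-92a-3p counts also hold reads of MIR92A2, so they cannot be assigned to that transcript alone.

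The profile of each member over the 14 libraries, as log2 normalized counts centred on the mean of each assay, was set against 148 or 149 other miRNAs that averaged 100 or more normalized counts in each assay. The pulldowns themselves make up much of such likeness. miR-92a-3p was most like miR-1908-5p (Pearson's r = 0.981), miR-320b (0.976) and miR-320c (0.964), and miR-25-5p was most like miR-1908-5p (0.982), miR-6087 (0.967) and miR-92a-3p (0.964). miR-92b-3p was most like let-7e-5p (0.977), miR-320d (0.972) and miR-320c (0.964), and miR-92b-5p was most like let-7b-3p (0.981), miR-3182 (0.974) and miR-6087 (0.962). miR-92a-1-5p was most like miR-92a-3p (0.960), let-7b-5p (0.957) and miR-320b (0.955). miR-25-3p was nearest to miR-335-3p (0.916), miR-106b-3p (0.908), which comes from another hairpin of its own cluster, and miR-26b-5p (0.857). miR-363-3p was nearest to miR-127-3p (0.796), miR-335-3p (0.769) and miR-25-3p (0.748). miR-32-5p was nearest to the depleted miR-381-3p (0.971), miR-30e-5p (0.962) and miR-101-3p (0.959).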

How the data were processed

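The authors trimmed adaptors from single-end small RNA reads (Trimmomatic), aligned them to hg38 with at most 1 mismatch and 10 loci, and counted mature miRNAs of miRBase 22 with featureCounts; the paper's methods name STAR and the submitters' processing notes Bowtie2 as aligner. The deposited values were raw counts per mature miRNA, not normalized, replicates not pooled. Members and lists were chosen with earlier results of these data known. DESeq2 1.42.0 (Wald test, median-of-ratios size factors) was fitted per assay to miRNAs that reached 10 counts in 2 libraries or more (BoRed-seq) or in 5 or more (m7G-RIP-seq), with Benjamini-Hochberg adjustment. Ratios used counts plus 0.5. The named genes were the 8 members, the 3 miRNAs most alike to each, and cluster mates called in both assays. Of 2588 names, 2281 matched a RefSeq sequence. Tested on simulated data, where 200 miRNAs had a log2 change of 2, the fit recovered 57% in BoRed-seq (453 miRNAs) and 83% in m7G-RIP-seq (670 miRNAs). Replicate numbers of Input and IP paired the libraries, and this pairing comes from the labels alone. The deviations of same-numbered libraries from their group means correlated at 0.146 to 0.387 in all 5 pairs. Input 2 correlated better with IP 1 (0.171) than with IP 2 (0.152). Input 4 correlated better with IP 5 (0.373) than with IP 4 (0.310), so these correlations do not settle the pairing. Alternatives were TMM or total-count factors, edgeR 4.0.16, other count filters, thinned controls, a replicate block, each replicate set alone, and leaving out each library. Library totals limit the precision of low counts, most of all in Red, and limits from a count of 0 cover counting error only.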

Additional observations from a re-analysis of the deposited data

How the results depend on the processing

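Over the alternatives, 208 of the members' log2 enrichments kept direction and call, 16 lost the call, 4 gained it and 6 changed sign. The gains and sign changes were all for miR-25-3p or miR-363-3p. The 208 include miR-363-3p in m7G-RIP-seq without IP replicate 4 (0.055) or 5 (0.16), where it had no adjusted p and kept its direction only. The sign changes, none of them called, were miR-25-3p in BoRed-seq with no count filter (−0.14) and without Ctrl replicate 1 (−0.22) or 2 (−0.44; range −0.44 to 0.67 when 1 library was left out), and, in m7G-RIP-seq, miR-25-3p in replicates 1 to 3 alone (−0.12) and miR-363-3p there (−1.02) and under the replicate block (−0.048). The number of members enriched in BoRed-seq was 6, and 3 to 5 when 1 library was left out, and the number depleted was 1, and 0 to 1. With 10 counts required in every library, the depleted count was 0 in each assay, because miR-32-5p was then not tested. In m7G-RIP-seq 4 to 5 members stayed enriched when 1 library was left out. The number of members whose enrichment differed between the assays was 3, but 6 with total-count factors, 5 with replicates 1 to 3 of m7G-RIP-seq alone and 5 with replicates 4 and 5 alone, 4 with the replicate block, which adds miR-92a-3p, and 2 to 4 when 1 library was left out. Differences between the assays depended on the scaling. Total-count factors moved the median of all tested miRNAs up by 1.28 in BoRed-seq and by 0.36 in m7G-RIP-seq (log2). The difference of miR-92a-3p went from 0.68 to 1.45. The share of all miRNAs that differed under these settings is not given here. The cause of the other changes was not tested. A replicate block in m7G-RIP-seq changed no member's enrichment call, but left 0 of the 3 ratios past the threshold, since 5 pairs cannot go below 0.0625. In BoRed-seq the 2 libraries of a group share only a number with the others (r = 0.110), and under the block 5 members were enriched, with miR-363-3p lost (1.75, adjusted p = 0.0990). If every miR-92a-3p read had been counted at both source hairpins, its count would be even in every library. It was even in 6 of 10 m7G-RIP-seq libraries and in 2 of 4 BoRed-seq libraries. These values cannot show whether a part of the reads was counted at both hairpins. How a read that fits both was counted is not stated. Halving the miR-92a-3p counts would have brought the members' Input share from 5.08% to 2.88%.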
